A study of Mus musculus with 6 samples.

Results

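The desmosome genes described here are *Dsg2*, *Dsg3*, *Dsc2*, *Dsc3*, *Jup*, *Dsp*, *Pkp1*, *Pkp2*, *Pkp3* and *Perp*. They are 10 of the 54418 gene identifiers in the count table, were taken by name because their proteins build or stabilize desmosomes, and all 10 passed the filter on low counts and were tested. RNA was sequenced from mammary epithelial cells of 3 *Glis2*+/+ and 3 *Glis2*-/- female C57BL/6 mice aged 4 weeks, with 1 library per mouse. The mutants carried a germline knockout, so the gene was disrupted in every tissue. The cells were sorted on CD24 and CD49f after staining for TER-119, CD31 and CD45, and the sources used here do not state which gate was collected. Total counts lay between 24996524 and 31393917 per library, and the comparison asked which genes differed between the genotypes.

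Desmosomes are adhesive junctions that tie the keratin filaments of neighbouring epithelial cells together. Desmogleins and desmocollins are cadherins that span the membrane and bind each other between cells, plakoglobin and the plakophilins are armadillo proteins of the plaque beneath them, and desmoplakin links that plaque to keratins. In the mammary duct, desmosomes join luminal cells to each other and to the basal myoepithelial cells around them. *Dsg2*, *Dsc2* and *Pkp2* are the forms used in simple epithelia, whereas *Dsg3*, *Dsc3* and *Pkp1* are known best from basal and stratified layers.

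No desmosome gene passed the test between the genotypes, and for 5 of the 10 the 95% interval of the main edgeR fit lay inside the fold threshold. Differences are given as log2 fold changes of CPM, the counts of a gene relative to the library's total after TMM scaling, *Glis2*-/- minus *Glis2*+/+, from edgeR's quasi-likelihood test with Benjamini-Hochberg adjustment over the 21236 genes tested. With calls set at adjusted p values up to 0.05 and log2 fold changes of 0.58 or more in size, 0 of the 10 members were called, and 0% of all genes tested were called too. At an unadjusted p under 0.05 there were 0 of 10 members beside 5.32% of all genes (1130 genes). That count was 2 (*Pkp3* and *Dsg2*) without *Glis2*+/+ mouse 2, where all 10 fitted values were above 0 and 6.03% of all genes tested were under 0.05. It was 1 (*Perp*) without *Glis2*-/- mouse 2, beside 4.58% of all genes. The genotypes did not overlap in CPM for 0 of 10 members beside 11.7% of all genes. DESeq2, run as the other tool, called 0 of 10 members beside 0.167% of all genes (45 genes), and it gave 0 members an unadjusted p under 0.05. The fitted value was above 0 for 7 members and below 0 for 3, with a median of 0.14, against 0.01 over all genes tested. On the log2 TPM scale, with either offset tried, 4 members were above 0 and 6 below. There the median over all genes was itself below 0, at -0.06 with an offset of 1 and -0.14 with 0.1. The member medians were -0.03 and -0.06. The summed CPM of the 10 members was 2127, 2462 and 2157 in *Glis2*+/+ mice 1 to 3 and 2411, 2352 and 2496 in *Glis2*-/- mice 1 to 3, and these ranges overlapped.

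The targeted gene and the cell makeup of the libraries stand beside every value below. *Glis2* itself was at 21.7, 23.2 and 19.6 CPM in the *Glis2*+/+ libraries and at 10.1, 17.0 and 16.3 CPM in the *Glis2*-/- libraries, a log2 fold change of -0.57 (adjusted p = 0.906, edgeR). Its reads were not absent from the mutant libraries, the position of the deleted part was not used here, and genotype rests on the labels. Epithelial markers were present in every library: 11 luminal markers summed to 4425 to 7321 CPM in *Glis2*+/+ and 4344 to 7701 CPM in *Glis2*-/-, and 9 basal markers to 4427 to 5734 and 6031 to 7249 CPM. The basal sum did not overlap between the genotypes, 9 of 9 basal markers had fitted values above 0, 6 of 9 had an unadjusted p under 0.05 and 0 were called. Fibroblast markers, 7 genes, summed to between 2327 and 7787 CPM, and endothelial markers, 5 genes, to between 112 and 620 CPM, although CD31 was in the staining panel. The 6 immune markers summed to 23.5 to 49.4 CPM in *Glis2*+/+ and 55.4 to 111 CPM in *Glis2*-/-. In bulk libraries, fewer cells of a type and less RNA per cell cannot be told apart.

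*Dsp* and *Jup* carried most of the desmosome signal. Levels between genes were compared as TPM, a share of all transcripts after division by transcript length. *Jup*, which encodes plakoglobin and also joins adherens junctions, had the highest mean, 40.2 ± 5.14 TPM (SD, n = 6), followed by *Dsp*, which encodes desmoplakin, at 31.9 ± 3.62 TPM. *Jup* was above *Dsp* in 6 of 6 libraries, by 1.08 to 1.40 times, although their ranges overlapped. In counts the order turned, since *Dsp* transcripts are long: *Dsp* had 32794 to 46650 counts per library and *Jup* 8304 to 10220. TPM values are low throughout because 1 gene, *Gm23935*, held 83.0% to 85.7% of each library's TPM, while it took 3.09% to 3.92% of the counts.

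**Figure D1:**
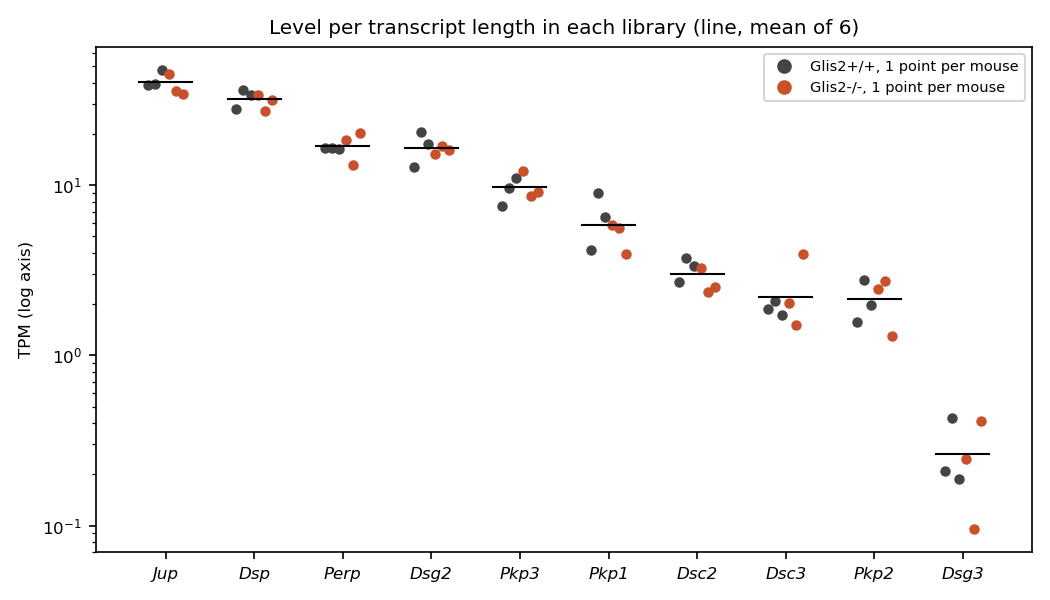
TPM on a log axis (y) of each desmosome gene (x, ordered by mean) in 3 *Glis2*+/+ and 3 *Glis2*-/- libraries, 1 point per mouse, with a line at the mean of 6. *Jup* and *Dsp* lie at the top with 27.4 to 47.5 TPM, and *Dsg3* lies alone at the bottom with at most 0.43 TPM.

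The other members spread over a wide range below these. *Perp*, a tetraspan membrane protein that supports desmosome assembly and is a target of p63, had 16.9 ± 2.39 TPM, and *Dsg2* had 16.6 ± 2.54 TPM. *Perp* exceeded *Dsg2* in 3 of 6 libraries, so these neighbours did not differ beyond their spread. Below them came *Pkp3* at 9.70 TPM, *Pkp1* at 5.84 TPM and *Dsc2* at 3.00 TPM, in this order in 6 of 6 libraries. *Dsc3* at 2.20 TPM and *Pkp2* at 2.13 TPM were not separated, with *Dsc3* higher in 2 of 6 libraries. *Dsc2* was above *Dsc3* in 5 of 6. *Dsg3* was far below the rest at 0.26 TPM, and *Pkp2* exceeded it by 3.16 to 28.7 times.

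The plaque genes *Dsp* and *Jup* are shown first, with the stretch before their RefSeq start, because they had the most transcripts. *Dsp* (ENSMUSG00000054889) spans chr13:38151294-38198577 on the plus strand and *Jup* (ENSMUSG00000001552) chr11:100368958-100397763 on the minus strand of GRCm38. The RefSeq promoter table for GRCm38.p6 matched 2 of the 10 members, and no upstream sequence is given for the other 8. The printed bases are chr13:38151044-38151293 (+) and chr11:100397840-100398040 (-), 250 and 201 bases, 5′ to 3′, with GC boxes (GGGCGG, or CCGCCC on the other strand) in capitals.
Dsp: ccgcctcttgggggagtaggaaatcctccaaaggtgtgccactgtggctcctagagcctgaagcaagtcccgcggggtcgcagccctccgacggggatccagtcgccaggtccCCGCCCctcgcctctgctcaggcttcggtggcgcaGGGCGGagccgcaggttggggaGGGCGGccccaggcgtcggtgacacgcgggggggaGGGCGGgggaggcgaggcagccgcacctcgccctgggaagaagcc
Jup: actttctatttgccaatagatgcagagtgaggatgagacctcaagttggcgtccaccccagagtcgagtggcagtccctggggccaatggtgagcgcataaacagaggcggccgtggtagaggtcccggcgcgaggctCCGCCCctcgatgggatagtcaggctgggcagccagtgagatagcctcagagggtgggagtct
The *Dsp* stretch held 4 GC boxes and the *Jup* stretch 1. A GC box on either strand was present in 32.7% of all 32851 windows of 250 bases in that table and in 24.8% of windows of 201 bases. Neither stretch held the E-box letters CACCTG or CAGGTG, which Snail and Zeb factors can bind and which 17.2% and 14.5% of the windows held. A match is a description of letters and shows no binding in these cells.

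*Dsp* was at 1227, 1423 and 1259 CPM in *Glis2*+/+ mice 1 to 3 and at 1400, 1326 and 1491 CPM in *Glis2*-/- mice 1 to 3. The second *Glis2*+/+ mouse lay inside the mutant range, so the genotypes overlapped. The means were 1303 ± 106 and 1405 ± 82.7 CPM (SD, n = 3 each), with a log2 fold change of 0.11 ± 0.09 (SE), a 95% interval of -0.10 to 0.31 and an adjusted p of 0.941 (edgeR).

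*Jup* had the narrowest range of CPM among the members. It was at 331, 317 and 319 CPM in *Glis2*+/+ and 357, 336 and 318 CPM in *Glis2*-/-, and the highest library was 1.12 times the lowest. In TPM the range of *Dsp* was narrower than that of *Jup*, 27.4 to 36.5 against 34.4 to 47.5. The means, 322 ± 7.70 and 337 ± 19.3 CPM, gave a log2 fold change of 0.06 ± 0.09 (SE) with a 95% interval of -0.13 to 0.26 (adjusted p = 0.973, edgeR). The upper ends of both plaque intervals lay below 0.58.

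**Figure D2:**
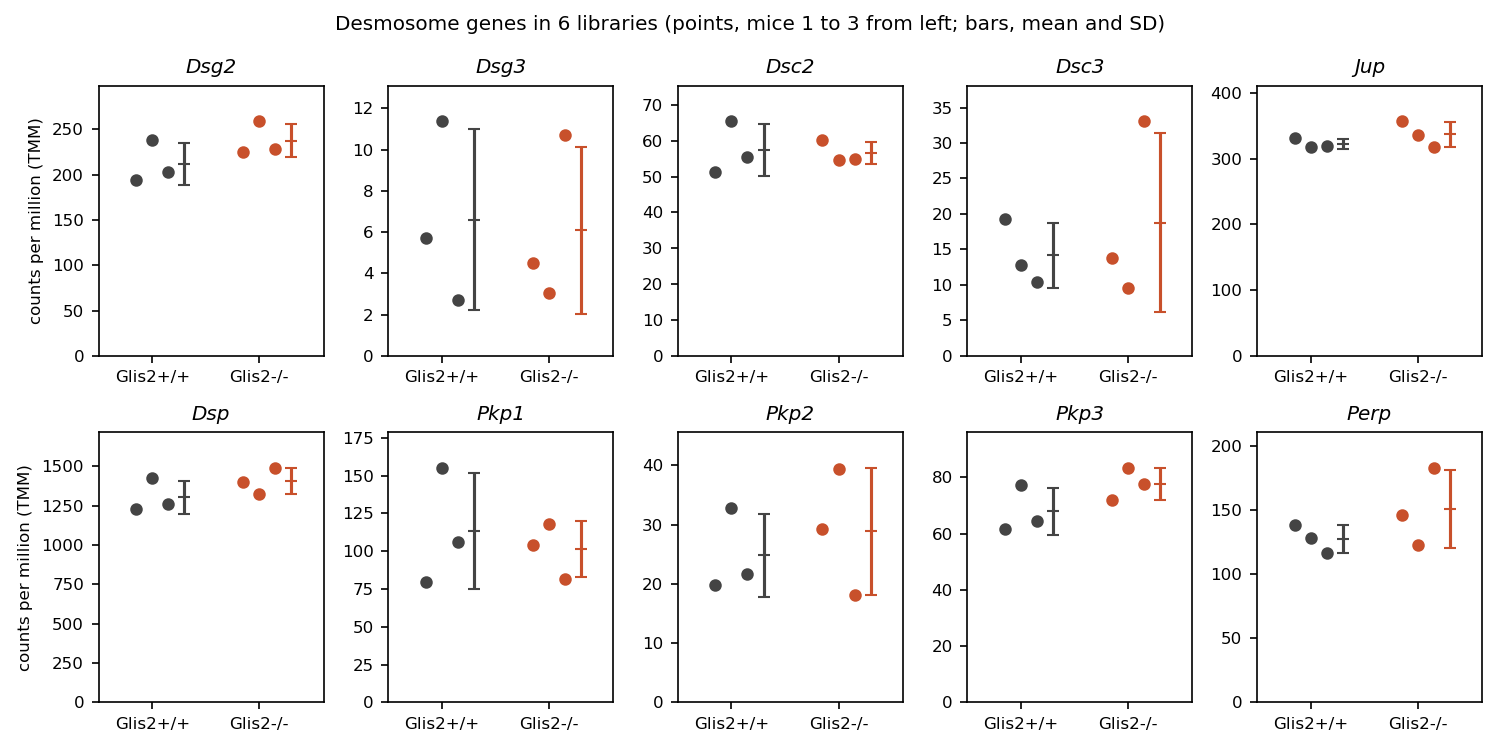
CPM (y, linear from 0, own scale per panel) of the 10 desmosome genes in *Glis2*+/+ and *Glis2*-/- libraries (x), 1 point per mouse with mice 1 to 3 from left, and bars for mean and SD of 3. The points of the genotypes overlap in every panel, closely for *Jup* (317 to 357 CPM) and widely for *Dsg3* (2.73 to 11.4 CPM).

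The plakophilins recruit desmoplakin and cadherins into the plaque, and they varied in different ways. *Pkp3* (chr7:141078218-141090510, plus strand), the broadly expressed form, was at 61.8, 77.3 and 64.6 CPM in *Glis2*+/+ and 72.1, 83.4 and 77.6 CPM in *Glis2*-/-. The mutant values reached higher, but *Glis2*+/+ mouse 2 lay between them. The log2 fold change was 0.19 ± 0.12 (SE), the 95% interval -0.09 to 0.47 and the adjusted p 0.940 (edgeR). *Pkp3* was the only member whose fitted value stayed above 0 in all 17 alternative settings.

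*Pkp1* (chr1:135871395-135919207, minus strand) was at 79.5, 155 and 106 CPM in *Glis2*+/+ and 104, 118 and 81.6 CPM in *Glis2*-/-. All 3 mutant values lay inside the *Glis2*+/+ range, and the log2 fold change was -0.17 ± 0.24 (SE; 95% interval -0.71 to 0.38; adjusted p = 0.973, edgeR). Without *Glis2*+/+ mouse 2, which had the highest *Pkp1* level, the value was 0.13. A gene model on the same strand, *Gm36938*, overlaps *Pkp1* and took 78 to 256 counts per library, and how reads were shared between these models was not tested.

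*Pkp2* (chr16:16213318-16272712, plus strand) was at 19.9, 32.8 and 21.8 CPM in *Glis2*+/+ and 29.2, 39.5 and 18.1 CPM in *Glis2*-/-. The mutant libraries held both the highest and the lowest value. The log2 fold change was 0.22 ± 0.30 (SE; 95% interval -0.46 to 0.90; adjusted p = 0.973, edgeR), and it was -0.08 without *Glis2*-/- mouse 2. For *Pkp1* and *Pkp2* the intervals extend past 0.58 in at least 1 direction, so a difference of that size was not excluded for them.

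The 4 cadherin genes lie in 1 cluster on chromosome 18 of GRCm38, *Dsc3* at 19960930 to 20002351, *Dsc2* at 20030633 to 20059554, *Dsg3* at 20510274 to 20547459 and *Dsg2* at 20558074 to 20604521. The desmocollins are on the minus strand and the desmogleins on the plus strand.

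*Dsg2*, the desmoglein of simple epithelia, was at 194, 238 and 203 CPM in *Glis2*+/+ and 225, 259 and 229 CPM in *Glis2*-/-. Each mutant library lay above *Glis2*+/+ mice 1 and 3, and *Glis2*+/+ mouse 2 lay above 2 of the mutants. For *Dsg2*, the log2 fold change was 0.17 ± 0.11 (SE; 95% interval -0.09 to 0.42; adjusted p = 0.941, edgeR).

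*Dsg3*, the target of autoantibodies in pemphigus vulgaris, was near the bottom of the count range. The *Glis2*+/+ libraries held 176, 325 and 71 counts of it and the *Glis2*-/- libraries 113, 91 and 335, or 5.70, 11.4 and 2.73 against 4.52, 3.04 and 10.7 CPM. A single library in each genotype was high, and the highest value was 4.18 times the lowest. The log2 fold change of -0.12 ± 0.59 (SE) had a 95% interval of -1.46 to 1.23 (adjusted p = 0.992, edgeR), and it was 0.53 without *Glis2*+/+ mouse 2 and -0.82 without *Glis2*-/- mouse 3.

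*Dsc2* was at 51.4, 65.5 and 55.3 CPM in *Glis2*+/+ and 60.1, 54.7 and 54.9 CPM in *Glis2*-/-. The mutant values lay within the *Glis2*+/+ range. Its log2 fold change stood at -0.02 ± 0.12 (SE; 95% interval -0.30 to 0.26; adjusted p = 0.994, edgeR).

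*Dsc3*, a desmocollin of basal epithelial layers, had the largest fitted value of the 10 members and it rested on 1 library. Counts of 594, 366 and 271 (*Glis2*+/+) stood against 344, 286 and 1035 (*Glis2*-/-), which gave 19.2, 12.8 and 10.4 against 13.7, 9.55 and 33.1 CPM. *Glis2*-/- mouse 3 stood above every other library, and the other 2 mutants lay within or below the *Glis2*+/+ range. The log2 fold change was 0.41 ± 0.44 (SE; 95% interval -0.60 to 1.42; adjusted p = 0.958, edgeR), and it was -0.30 without *Glis2*-/- mouse 3.

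*Perp* (chr10:18845020-18857073, plus strand) was at 138, 128 and 116 CPM in *Glis2*+/+ and 146, 123 and 183 CPM in *Glis2*-/-. *Glis2*-/- mouse 3 was the highest here too. For *Perp*, the log2 fold change was 0.24 ± 0.15 (SE; 95% interval -0.10 to 0.59; adjusted p = 0.939, edgeR), and without *Glis2*-/- mouse 3 it was 0.06.

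The intervals separated the members into those that were measured tightly and those that were not. For *Dsp*, *Jup*, *Pkp3*, *Dsg2* and *Dsc2*, 5 of 10, the whole 95% interval lay between -0.58 and 0.58, and all 10 intervals held 0. This holds for the main edgeR fit alone, since estimates and standard errors moved with the setting. *Pkp3* was at 0.26 ± 0.15 (SE) with length offsets and at 0.30 ± 0.12 (SE) without *Glis2*+/+ mouse 2. With the basal level as a covariate, *Pkp3* was at 0.19 ± 0.24 (SE) and *Dsg2* at 0.21 ± 0.22 (SE). The highest library exceeded the lowest by less than 1.6 times for 6 members, and by 1.95 times for *Pkp1*, 2.19 for *Pkp2*, 3.46 for *Dsc3* and 4.18 for *Dsg3*. A p above the threshold does not show that levels were equal.

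**Figure D3:**
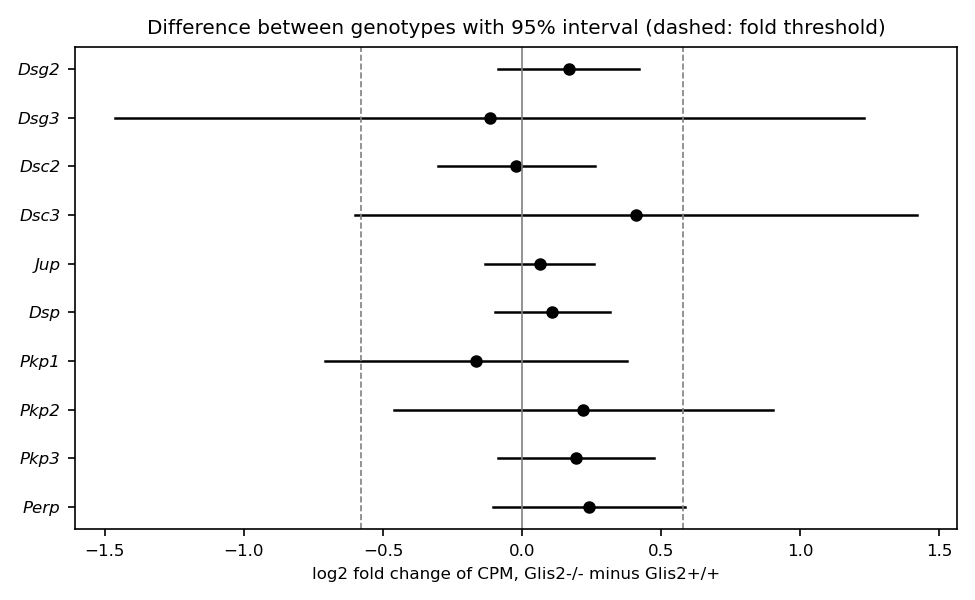
Log2 fold change of CPM (x, *Glis2*-/- minus *Glis2*+/+) for each desmosome gene (y), with the edgeR estimate as a point and its 95% interval as a bar. A solid line marks 0 and dashed lines the fold threshold of 0.58. Every interval crosses 0, and *Dsg3* and *Dsc3* have the widest, -1.46 to 1.23 and -0.60 to 1.42.

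Among libraries of both genotypes, *Pkp1* and *Pkp2* were high where the luminal markers were high. From the highest summed luminal level to the lowest the order was *Glis2*-/- mouse 2 (7701 CPM), *Glis2*+/+ mouse 2 (7321), *Glis2*-/- mouse 1 (6569), *Glis2*+/+ mouse 3 (6309), *Glis2*+/+ mouse 1 (4425) and *Glis2*-/- mouse 3 (4344). The 6 libraries fell in the same order by *Pkp2*, and the 2 libraries with the highest *Pkp1* were the 2 with the highest luminal sum. Divided by the luminal sum, the spread between the highest and the lowest library was 1.38 times for *Pkp1* and 1.49 times for *Pkp2*. For the other 8 members that division widened the spread, also for *Pkp3* (1.75 in place of 1.35) and *Dsg2* (1.64 in place of 1.33), which were highest in *Glis2*-/- mouse 2 too. *Pkp1* and *Pkp2* were picked for this description after their values were seen. With the luminal level as a covariate, the standard error was 0.13 for *Pkp1* and 0.16 for *Pkp2*, and the log2 fold changes were -0.16 and 0.14. With the fibroblast and endothelial level in its place, the standard errors were 0.11 and 0.17 and the log2 fold changes -0.15 and 0.17, so the smaller errors were not particular to the luminal level. The fibroblast sum was lowest in the same 2 libraries, *Glis2*+/+ mouse 2 (2327 CPM) and *Glis2*-/- mouse 2 (2612 CPM), and the share of each cell type in these values was not tested.

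*Dsc3*, *Perp* and *Dsp* were highest in *Glis2*-/- mouse 3, the library with the highest basal sum (7249 CPM) and the lowest luminal sum. That library also had the highest endothelial sum (620 CPM) and the highest immune sum (111 CPM, against at most 64.8 elsewhere), and the part of these cell types in the values was not tested. Divided by the basal sum, the spread of *Perp* was 1.29 times in place of 1.57. For *Dsc3* it was 2.88 times in place of 3.46. For the other 8 members, *Dsp* among them (1.38 in place of 1.21), it was wider after the division. With the basal level as a covariate, the log2 fold changes turned to -0.25 for *Perp* and -1.28 for *Dsc3*, and that level itself did not overlap between the genotypes, so genotype and basal level cannot be told apart in that fit. Markers of cornified epidermis stayed low in all libraries, with 7 markers summing to 4.83 to 11.6 CPM and *Lor* at no more than 5 counts. In *Glis2*-/- mouse 3, however, *Dsg1a* had 182 counts against 0 to 14 elsewhere, *Dsc1* 35 against 0 to 11 and *Ivl*, a marker of differentiated keratinocytes, 22 against 0 to 3. These 3 genes were chosen after their values were seen, and the epidermal list was mixed in that library. *Flg* (33 counts against 2 to 24) and *Lor* (5 against 0 to 3) were also highest there. *Krt1* had 0 counts against 5 to 43 elsewhere, and the library's epidermal sum, 7.86 CPM, was the second lowest of the 6.

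**Figure D4:**
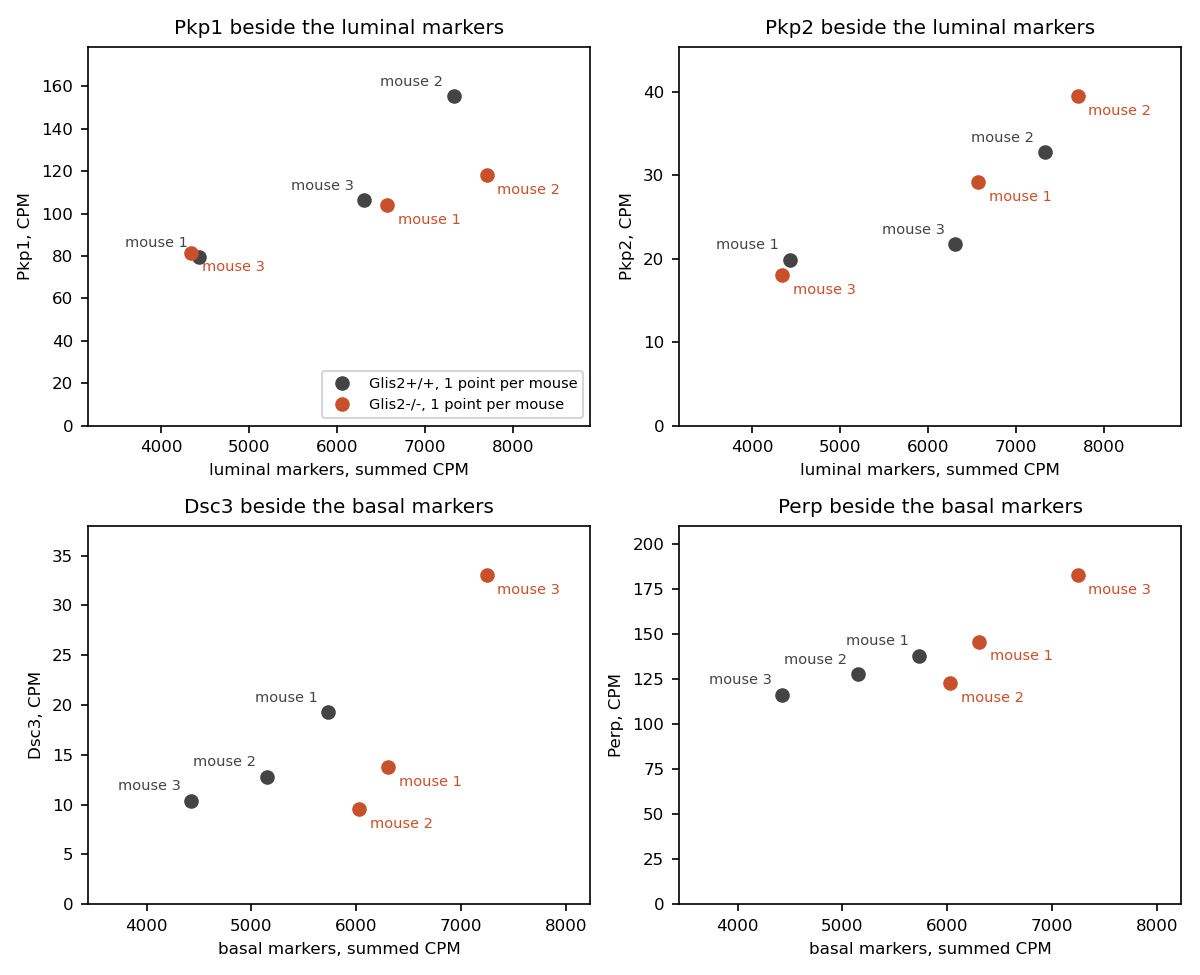
CPM (y, from 0) of *Pkp1* and *Pkp2* against the summed CPM of 11 luminal markers (x), and of *Dsc3* and *Perp* against that of 9 basal markers (x, axes not from 0), 1 labelled point per mouse. *Pkp2* lies in the order of the luminal sum, and *Glis2*-/- mouse 3 stands apart for *Dsc3* at 33.1 CPM.

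Shares within each family, in TPM, described the transcripts of mixed luminal and basal cells, and they overlapped between the genotypes in the desmogleins, the desmocollins and the plakophilins. *Dsg3* made up 0.55% to 2.47% of *Dsg2* plus *Dsg3*. *Dsc3* made up 40.8%, 35.9% and 34.0% of *Dsc2* plus *Dsc3* in *Glis2*+/+ and 38.1%, 39.0% and 60.9% in *Glis2*-/-. It was thus the larger desmocollin only in *Glis2*-/- mouse 3. *Pkp3* was the main plakophilin in all 6 libraries with 45.1% to 63.7% of the 3, *Pkp1* held 27.3% to 42.0% and *Pkp2* 9.0% to 16.0%. As a share of all 10 members, *Dsc2* alone did not overlap, with 2.38% to 2.65% in *Glis2*+/+ and 2.05% to 2.36% in *Glis2*-/-, which was not tested. For comparison, 11.7% of all genes tested did not overlap in CPM, and in CPM the genotypes did overlap for *Dsc2*.

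The *Dsc3* and *Dsg3* values also depended on the transcript length behind TPM. The ratio of counts to TPM, rescaled per library, differed by 1.84 times between libraries for *Dsc3*, by 1.69 times for *Dsg3* and by 1.39 times for *Pkp3*. The median was 1.24 over 11660 genes with at least 100 counts in each library, a minimum that *Dsg3* did not meet in 2 libraries. The ratio differed by 1.04 times for *Dsp*, 1.12 for *Jup* and 1.01 for *Perp*.

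**Figure D5:**
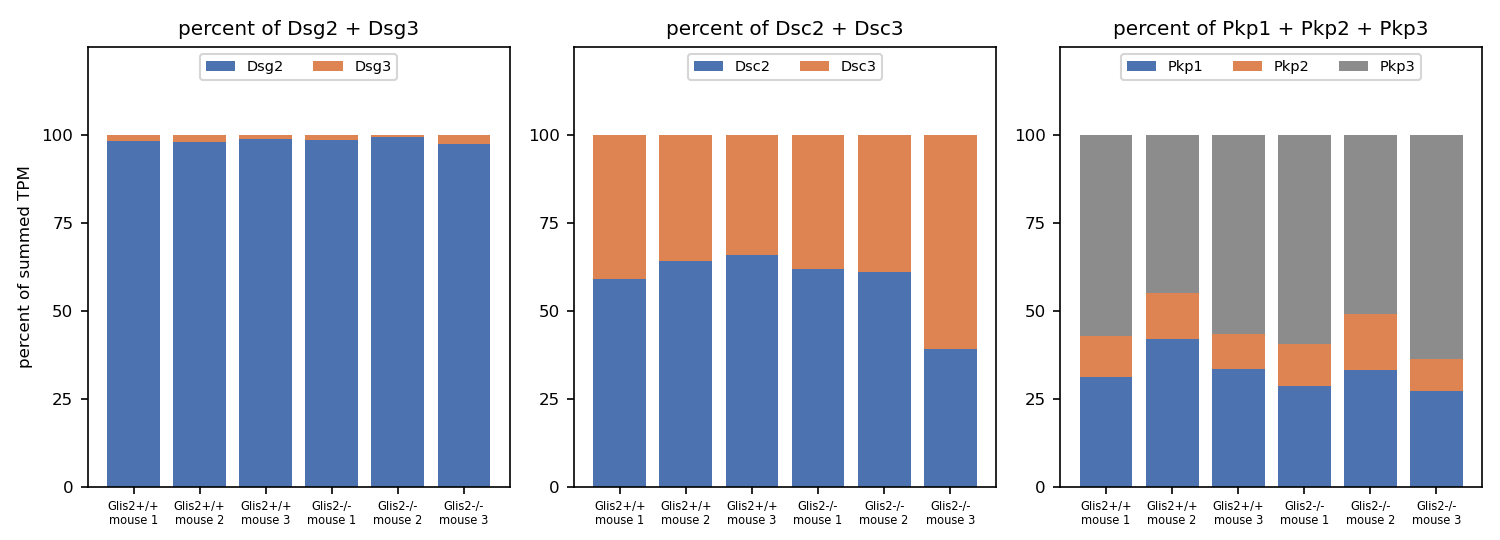
Share of summed TPM in percent (y) of the desmogleins, the desmocollins and the plakophilins in each library (x), as bars stacked to 100. *Dsg2* fills nearly the whole desmoglein bar in all 6 libraries, and *Dsc3* passes *Dsc2* only in *Glis2*-/- mouse 3 with 60.9%.

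Other desmosome genes, 9 in all, were fewer and mostly near 0. *Pkp4*, *Evpl*, *Ppl* and *Dsg1c* passed the filter, 1 with a fitted value above 0 and 3 below, 0 were called, and the median was -0.08. *Dsg1c* had the smallest unadjusted p of the list, where 32, 20 and 31 *Glis2*+/+ counts stood against 11, 10 and 17 *Glis2*-/- counts, a log2 fold change of -1.14 (95% interval -2.62 to 0.34; adjusted p = 0.924, edgeR). *Pkp4*, a plakophilin relative found also at adherens junctions, was at 0.11 (95% interval -0.18 to 0.40). *Dsg1a*, *Dsg1b*, *Dsg4*, *Dsc1* and *Cdsn*, genes of upper epidermal layers, did not pass the filter. The closely related desmoglein 1 copies can share reads, so their separate counts are uncertain.

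Neighbouring parts of the junction were read in the same way. Of 10 keratins that desmosomes anchor, 7 had values above 0 and 3 below, 0 were called and the median was 0.09. *Krt17* and *Krt14*, keratins of basal mammary cells, had the smallest unadjusted p in that list, with log2 fold changes of 0.36 (95% interval -0.02 to 0.74) and 0.45 (-0.04 to 0.95). Of 9 adherens junction genes, 5 were above 0 and 4 below, 0 were called and the median was 0.06. *Cdh3*, the P-cadherin of myoepithelial cells, was at 0.37 (-0.07 to 0.80) and *Nectin2* at 0.19 (-0.12 to 0.50).

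Hemidesmosome genes, which anchor keratins to the basement membrane below basal cells, were apart in their sum, which rested on *Dst*. The 9 genes summed to 5855 to 6495 CPM in *Glis2*+/+ and 6564 to 7022 CPM in *Glis2*-/-, with 7 values above 0, 2 below, a median of 0.19 and 0 called. Without *Dst*, at 2499 to 2914 CPM in *Glis2*+/+ and 3112 to 3187 CPM in *Glis2*-/-, the other 8 summed to 3279 to 3766 and 3393 to 3910 CPM and overlapped. *Itgb4*, an integrin chain of the hemidesmosome, also did not overlap but lay the other way, at 198, 215 and 235 CPM against 190, 190 and 189 CPM (log2 fold change -0.19, adjusted p = 0.910, edgeR), and it was named after its values were seen. *Dst*, whose epithelial form is the plakin BP230, had a log2 fold change of 0.22 (95% interval 0.04 to 0.40; unadjusted p = 0.0237 and adjusted p = 0.906, edgeR). The basal marker sum was higher in the same mutant libraries, and its part in these values was not tested.

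Of 14 regulators of desmosome genes and assembly, 9 were above 0 and 5 below, 0 were called and the median was 0.05. *Trp63* encodes p63, which directs basal identity and activates *Perp*, and it is also 1 of the 9 basal markers. It was at 185, 121 and 129 CPM in *Glis2*+/+ and 204, 166 and 274 CPM in *Glis2*-/-, a log2 fold change of 0.56 (95% interval 0.07 to 1.06; unadjusted p = 0.0292 and adjusted p = 0.906, edgeR). *Glis2*-/- mouse 3 was highest, as for *Perp* and *Dsc3*. *Klf5*, an epithelial transcription factor, was at 83.5, 128 and 100 CPM against 69.7, 89.8 and 78.6 CPM, a log2 fold change of -0.39 (95% interval -0.77 to -0.0015; unadjusted p = 0.0493 and adjusted p = 0.906, edgeR). The genotypes overlapped for both.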

How the data were processed

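RNA-seq libraries of sorted mammary epithelial cells were prepared by the authors with a stranded total RNA kit for picogram inputs and sequenced as paired reads. The authors estimated counts per gene with Salmon 1.2.1 on an mm10 transcriptome and assembled them with tximport, and the deposited expected counts are whole numbers without normalization. The deposited log2 values are log2 of TPM plus 1, and TPM was recovered from them. Of 54418 identifiers, 54096 were matched to GRCm38 symbols.

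Genes were filtered with filterByExpr, scaled by TMM and tested with edgeR 4.0.16 in R 4.3.3 (glmQLFit and glmQLFTest), with all 6 libraries, genotypes from the labels and no replicate block, and calls required adjusted p values up to 0.05 and log2 fold changes of 0.58 or more in size. The script was tested on simulated data. No library copied another of its genotype (chi-square per degree of freedom at least 22.0). The members and gene lists were chosen with earlier results of these data known. All 10 members, *Glis2* and the 2 genes of smallest unadjusted p per pathway list were named by rule, and a result that this rule selects is not reported here. Alternatives were DESeq2 1.42.0 with apeglm 1.24.0, DESeq2 size factors, other filters, log2 TPM in limma 3.58.1, a replicate block, leaving out each mouse and, added after the data were seen, 4 fits with length offsets or marker covariates. Counting intervals were not used, since precision was set by the 3 mice per genotype.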

Additional observations from a re-analysis of the deposited data

How the results depend on the processing

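Whether a desmosome gene was called did not depend on the settings tried: 0 members were called in 18 of 18 alternatives. The count of all genes called was 45 with DESeq2, 40 without a filter on low counts, 1 with log2(TPM + 0.1), 11 with the fibroblast and endothelial covariate and 0 in the other 14; the cause was not tested. The median over members was 0.14, and it lay between 0.05 and 0.25 when each mouse was left out in turn, at -0.03 with log2(TPM + 1), -0.06 with log2(TPM + 0.1) and 0.04 with the basal covariate. The TPM settings moved the median of all genes to -0.06 and -0.14. On these scales *Dsp* was at -0.075 and -0.077, *Jup* at -0.12 and -0.13 and *Dsg2* at -0.038 and -0.039. Relative to the median of all genes, *Dsp* was at -0.012 and 0.06, *Jup* at -0.060 and 0.01 and *Dsg2* at 0.026 and 0.10. With length offsets *Dsg3* was at 0.022, *Dsc3* at 0.577 in place of 0.409 and *Pkp3* at 0.262 in place of 0.195. With the basal covariate *Dsp* was at -0.012, *Pkp1* at 0.15, *Dsc3* at -1.28 and *Perp* at -0.25, while *Dsg3* was at -2.49 and *Pkp2* at 0.68. An unadjusted p under 0.05 (edgeR) was given to 1 member there (*Dsg3*), beside 4.21% of all genes tested, and to 1 with the luminal covariate (*Perp*), beside 8.12%. Leaving out each mouse in turn gave -0.39 to 0.13 for *Pkp1*, -0.081 to 0.48 for *Pkp2*, -0.82 to 0.53 for *Dsg3*, -0.11 to 0.085 for *Dsc2* and -0.30 to 0.73 for *Dsc3*, and the other 5 members kept their direction but not their size, with 0.049 to 0.18 for *Dsp*, 0.017 to 0.087 for *Jup*, 0.11 to 0.30 for *Pkp3*, 0.091 to 0.26 for *Dsg2* and 0.060 to 0.36 for *Perp*. A replicate block left 0 members and 0 genes called, with a member median of 0.14. Same-numbered mice correlated at -0.02, 0.17 and 0.02 in their deviations from the group means. With 3 mice per genotype these values cannot settle whether the mice were paired. With 3 mice per genotype, the main-fit intervals of *Dsg3*, *Dsc3*, *Pkp1*, *Pkp2* and, barely, *Perp* hold differences past the fold threshold. A sample that stands apart was not tested for in groups of 3.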
